A study of Mus musculus with 6 samples.

Results

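The 8 genes of the Cas adhesion scaffold system described here were measured in Lewis cells, a mouse lung carcinoma line, kept for 24 hours with the solvent DMSO or with SD70, an inhibitor of the histone demethylase KDM4C. They were the 4 genes of the Cas family (Cass4, Nedd9, Bcar1 and Efs), the kinases Ptk2, Ptk2b and Src, and the adaptor Crk, 8 of the 16081 genes listed. The genes were taken by symbol, and the set was chosen by how Cass4 differed between SD70 and DMSO in these same samples, so the differences of the 8 genes are given as a description with no test. There were 3 samples with DMSO and 3 with SD70, all of the same cell line, and the dose used for RNA-seq was not given in the sources used here. The labels give separate samples but not separate cultures, so that the p-values given for other genes measure the spread between these samples, which may be technical.

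Cas proteins are scaffolds without catalytic activity that sit at focal adhesions, where integrins link the extracellular matrix to actin. When integrins are engaged, focal adhesion kinase (Ptk2) or its relative Pyk2 (Ptk2b) binds Src, and together they phosphorylate the many tyrosines in the middle of a Cas protein. The adaptor Crk docks on these tyrosines through its SH2 domain and brings exchange factors that activate Rac and Rap, a route to cell spreading and migration. Bcar1 is the widely expressed founder of the family, Nedd9 is known for its part in invasion and in mitosis, Efs is known from immune cells, and Cass4 is the least studied of the 4.

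Library totals ranged from 15276744 to 17060424 counts per sample, and 11552 genes had enough counts to be tested. Of the defining markers of epithelial carcinoma, Krt8 was abundant (mean FPKM of 146 with DMSO), Krt18 was at 4.32 FPKM, and Epcam and Cdh1 had at most 1 count in any sample. Both keratins were lower with SD70 (log2 fold change of −0.55, SE 0.0518, adjusted p = 3.28e-11 for Krt8 and −1.22, SE 0.176, adjusted p = 2.97e-07 for Krt18, in 3 of 3 samples each, edgeR). Of the 8 listed blood cell markers, 5 had at most 6 counts in any sample, among them the defining Ptprc at 0 counts in each DMSO sample and at most 2 with SD70. Cd68 was present, at 253, 245 and 245 counts with DMSO against 175, 155 and 168 with SD70 (log2 fold change of −0.48, SE 0.101, adjusted p = 1.21e-04, edgeR), while Lyz2 and Cd79a had 26 counts or fewer and did not pass. The summed level of the 8 listed blood markers was 16.1 to 16.7 FPKM with DMSO and 11.5 to 13.5 with SD70, most of it Cd68, and that of 5 endothelial markers was 0.93 to 1.13 and 1 to 1.26. The part of these markers in the results was not tested, and in a bulk sample fewer cells of a type and less RNA per cell cannot be told apart.

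The promoters of the 3 Cas genes that were detected are shown, and no link between their sequence and the changes with SD70 was tested. Each is the 250 bases upstream of a transcription start in RefSeq (GRCm38.p6), written 5′ to 3′ on the strand of the gene, with CpG dinucleotides in capitals. Cass4 lies at chr2:172393394-172393643 on the plus strand, directly upstream of the gene. Nedd9 lies at chr13:41359002-41359251 on the minus strand, from a start inside the longest span of the gene. Bcar1 lies at chr8:111743850-111744099 on the minus strand, directly upstream of the gene.
Cass4: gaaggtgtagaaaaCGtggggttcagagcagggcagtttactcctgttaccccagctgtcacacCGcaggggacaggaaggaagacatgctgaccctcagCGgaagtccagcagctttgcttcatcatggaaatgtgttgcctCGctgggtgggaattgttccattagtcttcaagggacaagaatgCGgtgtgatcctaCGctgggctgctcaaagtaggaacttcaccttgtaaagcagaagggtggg
Nedd9: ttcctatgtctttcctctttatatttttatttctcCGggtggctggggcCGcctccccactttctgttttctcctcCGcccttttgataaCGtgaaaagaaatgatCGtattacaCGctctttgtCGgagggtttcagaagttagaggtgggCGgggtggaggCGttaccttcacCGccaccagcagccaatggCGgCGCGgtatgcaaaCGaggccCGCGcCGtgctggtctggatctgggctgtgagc
Bcar1: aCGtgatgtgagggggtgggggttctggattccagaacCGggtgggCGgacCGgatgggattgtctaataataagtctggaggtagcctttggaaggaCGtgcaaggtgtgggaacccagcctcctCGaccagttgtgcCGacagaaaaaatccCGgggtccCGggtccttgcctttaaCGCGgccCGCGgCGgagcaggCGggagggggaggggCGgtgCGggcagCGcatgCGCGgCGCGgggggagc

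The Cass4 window held 6 CpG dinucleotides at a GC content of 52.8%, close to the medians of 6 and 52.4% over all 32851 RefSeq promoter windows of this length. The windows of Nedd9 and Bcar1 held 17 and 22, at GC contents of 54.8% and 65.6%. Bcar1 has another start inside the gene, whose window (chr8:111732137-111732386) held 21 at 67.2%. The windows of Efs and Crk held 18 each, and that of Src held 40, more than 98.7% of all windows. Sequence was matched for 6 of the 8 genes, in 7 windows, and not for Ptk2 and Ptk2b. On either strand, none of the 7 windows held the AP-1 motif TGANTCA, the cAMP response element core TGACGT, the ATF4 and C/EBP composite motif TGATGNAA or the E-box CACGTG. These letters were found in 6.75%, 6.47%, 3.45% and 6.02% of all windows, so that their absence from a handful of windows is a description of these bases only.

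Cass4 (gene ID 320664; chr2:172393644-172433752, plus strand, GRCm38.p6) stood apart from the other 7 genes. The DMSO samples held 46, 68 and 63 counts of it, against 558, 606 and 664 in the SD70 samples. In FPKM, a level scaled for transcript length and library size, the DMSO samples were at 0.78, 1.15 and 1.04 and the SD70 samples at 9.59, 10.2 and 12.4. Every SD70 sample lay far above every DMSO sample on both scales, and the groups did not overlap. Scaled to a common library size, the DMSO mean was 57.1 ± 11.0 normalized counts and the SD70 mean was 633 ± 86.4, each with its SD over 3 samples. The log2 fold change was 3.46 (SE 0.123), an 11.0-fold difference, which ranked 15 of 11552 genes from the top. By its FPKM, Cass4 stood at percentile 34.5 of all listed genes with DMSO and at percentile 59.7 with SD70. No other RefSeq gene overlaps it.

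**Figure D1:**
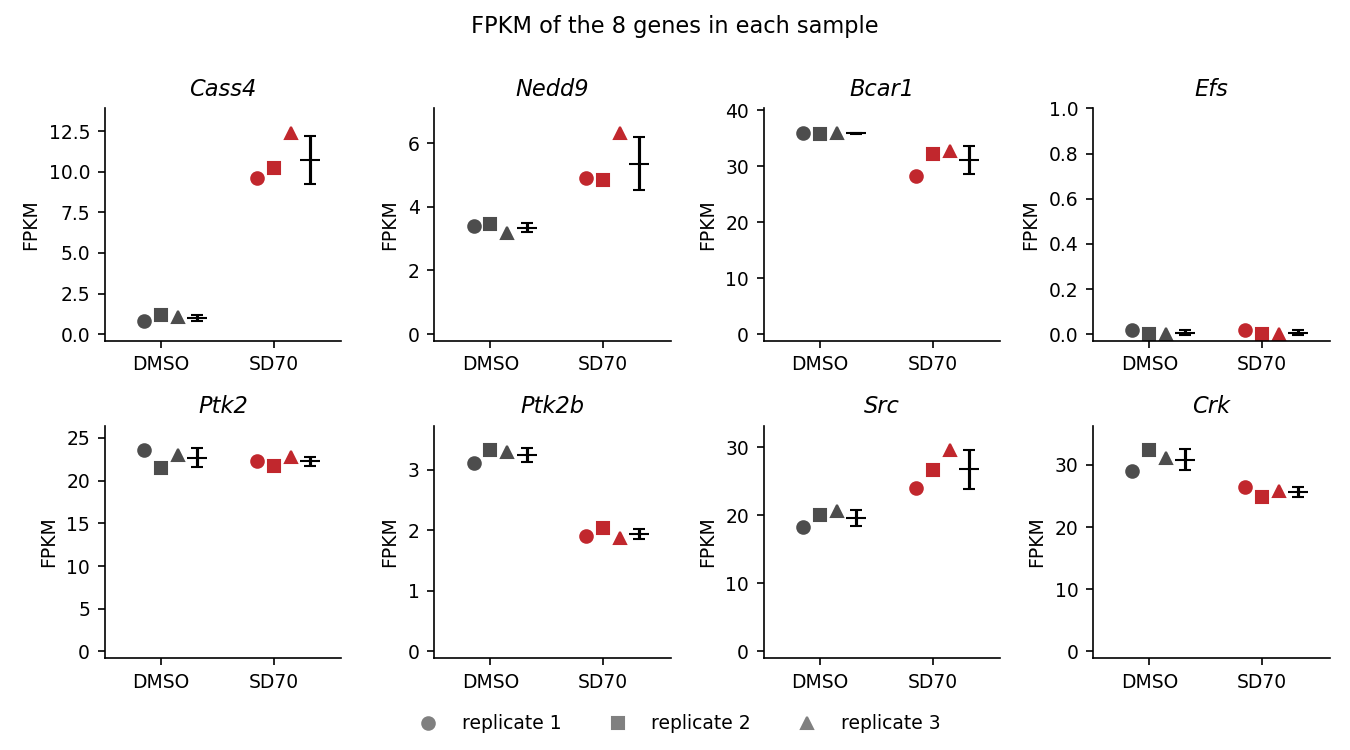
FPKM of the 8 genes in each of the 3 DMSO and 3 SD70 samples, on a linear axis for each gene. Points are samples, with a shape for each replicate number, and the bar beside them is the mean ± SD. Cass4 went from 0.78 to 1.15 FPKM with DMSO to 9.59 to 12.4 with SD70, and the 2 groups of Ptk2 and of Efs overlap.

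Nedd9 (gene ID 18003; chr13:41309916-41487362, minus strand), the relative of Cass4 known from invading cells, was also higher with SD70, by less. The DMSO samples held 246, 258 and 234 counts of it, against 349, 351 and 409 in the SD70 samples. The lowest SD70 sample exceeded the highest DMSO sample, and replicate 3 was the highest of all. The DMSO and SD70 means were 238 ± 13.1 and 384 ± 57.0 normalized counts, and the difference came to a log2 fold change of 0.69 (SE 0.0944) or 1.61-fold.

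Bcar1 (gene ID 12927; chr8:111710474-111743849, minus strand), the most abundant of the family, went the other way. The DMSO samples held 1789, 1780 and 1825 counts of it, against 1389, 1610 and 1479 in the SD70 samples. The DMSO samples were nearly alike, and all SD70 samples were below them. The DMSO and SD70 means were 1741 ± 10.9 and 1545 ± 118 normalized counts, a log2 fold change of −0.17 (SE 0.0565). Nedd9 and Bcar1 overlap non-coding genes in RefSeq, and since no strand setting for the counting is given, reads of the genes and of these RNAs cannot be told apart.

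Efs (gene ID 13644; chr14:54916543-54926788, minus strand) was hardly read. It was at 1, 0 and 0 counts in the DMSO samples, against 1, 0 and 0 in the SD70 samples, below the filter for testing. With both groups under the 3 counts that a count of 0 allows in a library, no fold change can be given, and Efs was not detectable at this depth rather than shown to be absent.

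Since FPKM is per length, the levels of the scaffolds can be set against each other within a sample. With DMSO, Cass4 made up 1.95%, 2.85% and 2.59% of the summed FPKM of the 4 Cas genes. With SD70 it made up 22.4%, 21.6% and 24.1%, a mean of 22.7% ± 1.26 against 2.46% ± 0.466 (SD, n = 3 each), 20.3 percentage points more. The share of Bcar1 was 89.6%, 88.5% and 89.5% with DMSO and 66.1%, 68.1% and 63.6% with SD70. Bcar1 remained the main scaffold transcript in every sample, but its lead over Cass4 shrank.

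The FPKM of Bcar1 was 46, 31.1 and 34.6 times that of Cass4 in the DMSO samples, and 2.95, 3.15 and 2.64 times in the SD70 samples. Nedd9 and Cass4 changed places. Nedd9 was 4.35, 3.02 and 3.07 times Cass4 with DMSO, whereas Cass4 was 1.95, 2.11 and 1.96 times Nedd9 with SD70. The share of Nedd9 itself was 8.33% ± 0.353 with DMSO and 11.3% ± 1.02 with SD70, and that of Efs was at most 0.0499% in any sample. The summed level of the family was 40.1, 40.3 and 40.2 FPKM with DMSO and 42.8, 47.2 and 51.6 with SD70, so that all SD70 samples were above the DMSO samples, with a wider spread among them.

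**Figure D2:**
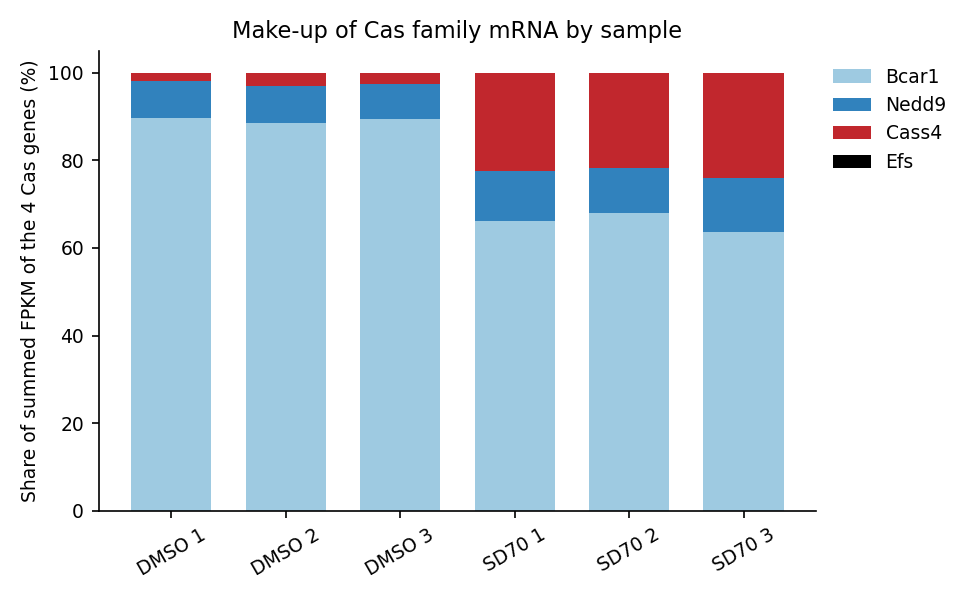
Share of each Cas gene in the summed FPKM of the 4 Cas genes, in percent, with 1 stacked bar for each sample. The band of Cass4 is 1.95% to 2.85% in the DMSO samples and 21.6% to 24.1% in the SD70 samples, that of Bcar1 narrows, and Efs is too low to be seen.

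The 2 focal adhesion kinases differed from each other. Ptk2 (gene ID 14083; chr15:73205102-73423820, minus strand), which starts tyrosine signalling at integrins, was at 1678, 1529 and 1685 counts in the DMSO samples, against 1553, 1558 and 1477 in the SD70 samples. The groups overlapped, and the means were 1579 ± 81.7 and 1583 ± 39.3 normalized counts, a log2 fold change of 0.00 (SE 0.0549) whose sign was not stable. Ptk2b (gene ID 19229; chr14:66153257-66281100, minus strand), its calcium-responsive relative, was at 197, 209 and 215 counts in the DMSO samples, against 122, 132 and 108 in the SD70 samples. Every SD70 sample of Ptk2b was below every DMSO sample. The means were 200 ± 7.46 and 125 ± 6.17 normalized counts, a log2 fold change of −0.68 (SE 0.109), 1.61-fold lower with SD70.

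Per length, Ptk2 exceeded Ptk2b in every sample, by 7.57, 6.46 and 7 times with DMSO and by 11.7, 10.6 and 12.2 times with SD70. Ptk2b made up 12.5% ± 0.873 of the summed FPKM of both kinases with DMSO and 8.03% ± 0.526 with SD70. Both genes overlap non-coding genes in RefSeq, and Ptk2 also hosts a microRNA, so that the strand limit given for Nedd9 holds here too.

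Src (gene ID 20779; chr2:157423906-157471838, plus strand), the tyrosine kinase that phosphorylates Cas proteins together with Ptk2, was higher with SD70. The DMSO samples held 1139, 1253 and 1314 counts of it, against 1481, 1663 and 1678 in the SD70 samples, with no overlap. The means were 1196 ± 77.3 and 1667 ± 172 normalized counts, a log2 fold change of 0.48 (SE 0.0652) or 1.39-fold. Crk (gene ID 12928; chr11:75679194-75708428, plus strand), the adaptor that reads phosphorylated Cas, was slightly lower. The DMSO samples held 2637, 2909 and 2818 counts of it, against 2412, 2354 and 2164 in the SD70 samples. The groups did not overlap, the means were 2699 ± 128 and 2389 ± 55.4 normalized counts, and the log2 fold change was −0.18 (SE 0.0514).

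In order of mean FPKM, the DMSO samples ran from Bcar1 (35.9 ± 0.143) through Crk (30.8 ± 1.73), Ptk2 (22.7 ± 1.06) and Src (19.6 ± 1.2) to a lower group of Nedd9 (3.35 ± 0.144), Ptk2b (3.24 ± 0.117), Cass4 (0.99 ± 0.19) and Efs. Nedd9 and Ptk2b overlapped, and no other neighbours in this order did. With SD70 the order was Bcar1 (31.1 ± 2.45), Src (26.8 ± 2.8), Crk (25.7 ± 0.786), Ptk2 (22.3 ± 0.567), Cass4 (10.7 ± 1.49), Nedd9 (5.36 ± 0.841), Ptk2b (1.94 ± 0.0889) and Efs. Here the values of Src overlapped those of Bcar1 and of Crk. Cass4 thus stood below Nedd9 and Ptk2b with DMSO and above both with SD70.

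The counts of the 8 genes are read against all genes tested. A gene was called where its adjusted p was under 0.01 and its log2 fold change was 1 or more in size, which held for 681 of 11552 genes (5.90%), 380 higher (3.29%) and 301 lower (2.61%). Among the 7 tested genes of the set, Cass4 alone lay past both thresholds. Without the fold change minimum, 5767 genes (49.9%) passed, 2976 higher (25.8%) and 2791 lower (24.2%). Of the 7 genes, 6 lay past this threshold, 3 higher (Cass4, Nedd9 and Src) and 3 lower (Bcar1, Ptk2b and Crk). The normalized counts of the groups did not overlap for the same 6 genes, and this held for 64.4% of all genes tested (32.8% with SD70 above and 31.6% below). Nothing is read from these counts, since the set was chosen on this contrast. The median log2 fold change was 0.00 over the 7 genes and 0.00 over all genes tested.

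To place the scaffolds among the rest of the adhesion machinery, 4 lists with 91 symbols were counted, of which 85 were listed and 72 tested. In edgeR 3 were called lower (4.17%, beside 2.61% of all genes) and none was called higher (beside 3.29%), and DESeq2 and limma likewise called none higher. The count of 3 became 2 without DMSO replicate 1, 5 without SD70 replicate 1 and 1 by limma on log2(FPKM + 1). At an unadjusted p under 0.05, 16 were higher and 37 lower in edgeR (22.2% and 51.4%, beside 32.2% and 31.4% of all genes). At an adjusted p under 0.01 with any fold change, 13 were higher (18.1%, beside 25.8% of all genes), 33 were lower (45.8%, beside 24.2%) and 26 did not pass. Their median log2 fold change was −0.16, beside 0.00 for all genes.

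Integrin subunits, the receptors upstream of the Cas proteins, were 15 tested genes with a median log2 fold change of −0.48, of which 2 were called, both lower (13.3%, beside 2.61% of all genes). That count rests on single samples, since it was 1 without DMSO replicate 1, 3 without DMSO replicate 3, where Itga10 was added, and 4 without SD70 replicate 1, where Itga10 and Itgae were added. At an adjusted p under 0.01 with any fold change, 8 fell (53.3%, beside 24.2% of all genes), 1 rose (6.67%, beside 25.8%) and 6 did not pass. Itga3, a laminin receptor subunit, was at 2652, 2453 and 2465 counts in the DMSO samples, against 1120, 1259 and 1070 in the SD70 samples. It fell by 1.04 on the log2 scale (SE 0.056, adjusted p = 1.64e-17, edgeR). This is just past the fold minimum, and without DMSO replicate 1 it fell short of that minimum and was no longer called. Itgb3, which pairs with Itgav in the vitronectin receptor, was scarce, at 14, 20 and 24 counts in the DMSO samples, against 5, 6 and 5 in the SD70 samples. It fell by 1.74 (SE 0.381, adjusted p = 1.92e-04, edgeR). By limma on FPKM it was not called, with a difference of −0.19 on log2(FPKM + 1), and a filter of 10 counts in every sample left it untested. The summed level of the 21 listed integrin genes was 511 to 547 FPKM with DMSO and 418 to 421 with SD70.

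Of 32 tested components of the focal adhesion plaque, the layer of proteins between integrins and actin, 15 fell (46.9%, beside 24.2% of all genes), 4 rose (12.5%, beside 25.8%) and 13 did not pass at an adjusted p under 0.01 with any fold change. Their median log2 fold change was −0.16. Lims2, a LIM protein that binds integrin-linked kinase, was the 1 called gene (3.12%, beside 2.61% of all genes called lower), with a log2 fold change of −1.11 (SE 0.137, adjusted p = 1.42e-08, edgeR) from 193, 142 and 186 counts to 71, 86 and 69. It was not called by limma on log2(FPKM + 1). Tns3, a tensin that ties integrin tails to actin, fell by 0.85 (SE 0.0655, adjusted p = 2.36e-13, edgeR), in 3 of 3 samples. The summed level of the list was 1155 to 1172 FPKM with DMSO and 1036 to 1081 with SD70.

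The 20 other Cas partners, such as exchange factors, phosphatases and adaptors, were all tested. None was called by edgeR, DESeq2 or limma, beside 5.90% of all genes in edgeR. At an unadjusted p under 0.05 in edgeR, 7 were higher (35.0%, beside 32.2% of all genes) and 9 lower (45.0%, beside 31.4%). At an adjusted p under 0.01, 6 of the 20 rose (beside 25.8% of all genes), 9 fell (45.0%, beside 24.2%) and 5 did not pass, with a median log2 fold change of −0.08. Pik3r1, a regulatory subunit of phosphoinositide 3-kinase, rose by 0.79 (SE 0.0621, adjusted p = 3.6e-13, edgeR), from 802, 845 and 769 counts to 1307, 1280 and 1325. Sh2d3c, an adaptor that binds the C-terminal end of Cas proteins, fell by 0.85 (SE 0.116, adjusted p = 1.04e-07, edgeR), from 247, 212 and 250 counts to 122, 149 and 98. Both genes had all SD70 samples on 1 side of all DMSO samples, as did 64.4% of all genes tested.

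Of the 9 other Src-family and Abl kinases, 5 were tested. None was called by edgeR, DESeq2 or limma, beside 5.90% of all genes in edgeR. At an unadjusted p under 0.05, 3 were higher (60.0%, beside 32.2% of all genes) and 1 lower (20.0%, beside 31.4%) in edgeR. At an adjusted p under 0.01, Fyn and Abl2 rose (40.0%, beside 25.8%), Abl1 fell (20.0%, beside 24.2%), and Yes1 and Lyn did not pass. Fyn, which like Src phosphorylates Cas proteins, rose by 0.71 (SE 0.0708, adjusted p = 3.11e-09, edgeR), from 902, 867 and 886 counts to 1281, 1312 and 1474. Abl1, which phosphorylates Crk, fell by 0.43 (SE 0.0542, adjusted p = 2.8e-08, edgeR), from 2495, 2280 and 2315 counts to 1614, 1729 and 1599.

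**Figure D3:**
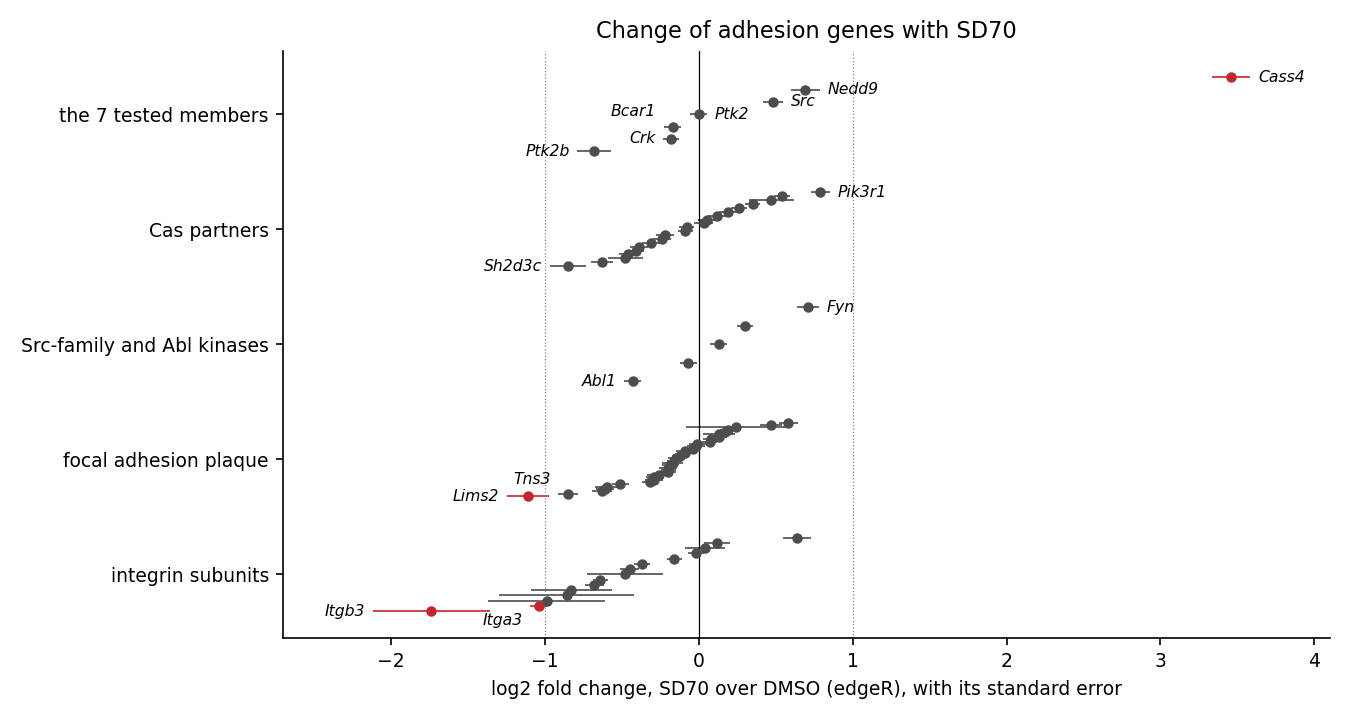
Log2 fold change, SD70 over DMSO, of the 7 tested genes of the set and of the tested genes of 4 adhesion lists. Points are genes, bars are standard errors, dotted lines mark a log2 fold change of 1 in size, and red marks genes past both thresholds. Cass4 at 3.46 stands alone on the right, and the 3 red genes of the lists are on the left, from −1.74 to −1.04.

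The genes with the profile nearest to that of Cass4 were found from log2 CPM, counts scaled to library size, over the 6 samples, each centred on the mean of its gene. The measure was the root mean square difference, over 9622 genes with a mean of at least 100 normalized counts, and it is a description over the same samples that chose Cass4. The nearest were Atf3 (0.235), a transcription factor induced by stress, Ccl20 (0.251), a chemokine, Chac1 (0.252), an enzyme that degrades glutathione, Gdf15 (0.257), a secreted stress cytokine, and Trib3 (0.265), a pseudokinase. Atf3 was at 295, 280 and 308 counts in the DMSO samples, against 3393, 3816 and 3793 in the SD70 samples. Chac1 was at 140, 177 and 202 counts in the DMSO samples, against 2279, 2544 and 2314 in the SD70 samples. All 5 had SD70 samples above the DMSO samples, with log2 fold changes from 2.96 for Trib3 to 3.88 for Chac1. With only DMSO and SD70 compared, nearness follows mainly from a difference of similar size, and shared regulation was not tested.

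**Figure D4:**
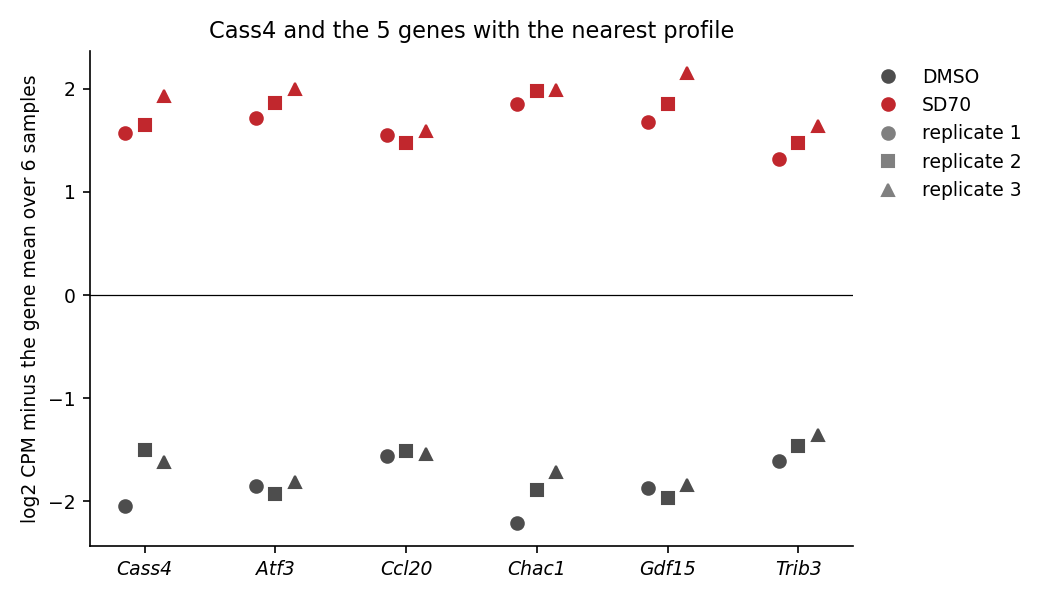
Log2 CPM, minus the mean of the gene over the 6 samples, of Cass4 and the 5 genes with the nearest profile. Points are samples, coloured by group and shaped by replicate number. Cass4 runs from −2.04 to −1.50 in the DMSO samples and from 1.57 to 1.93 in the SD70 samples, and the other genes separate in the same way.

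The 3 nearest listed genes on each side of Cass4 on chromosome 2 were looked up. None of those tested was called by edgeR, beside 5.90% of all genes. Rtf2, 6.83 kb away and known from replication forks, had a log2 fold change of 0.08 (SE 0.0595, adjusted p = 0.229, edgeR). Cstf1, a 3′ end processing factor 11.2 kb away on the other side, had one of 0.06 (SE 0.056, adjusted p = 0.388, edgeR). Aurka, a mitotic kinase 22.8 kb away that Nedd9 is known to activate, fell by 0.41 (SE 0.0561, adjusted p = 9.48e-08, edgeR), from 1658, 1612 and 1779 counts to 1148, 1255 and 1144. Fam210b, 37.9 kb away, had a log2 fold change of −0.13 (SE 0.075, adjusted p = 0.143, edgeR). Gcnt7 and Fam209 had at most 5 and 2 counts in any sample and were not tested.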

How the data were processed

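RNA-seq of 6 samples was analysed, grouped by the labels. The extraction text in the labels speaks of ground tissue, whereas the other labels give a cell line. The authors sequenced oligo(dT)-selected mRNA on the BGISEQ-500 platform and, per their methods, aligned clean reads to GRCm38.p6 with HISAT. The submitters' processing notes name StringTie 1.3.3b and the build mm8, with no role given, and the counting tool is not given in the sources used here. The authors deposited, for each gene, an expected count that is not normalized, and an FPKM value normalized for length and library size. The unit of the latter was taken from its values in DMSO replicate 1. Over 1486 well-counted genes with a single coding transcript, the length implied by count and FPKM had a median of 0.916 of the annotated length. Between 8.84% and 9.28% of the expected counts of a sample were not whole, while those of the 8 genes were whole in every sample.

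Counts were rounded, filtered with filterByExpr, scaled by TMM, with factors between 0.984 and 1.02, and tested with the quasi-likelihood test of edgeR 4.0.16 in R 4.3.3, with Benjamini-Hochberg adjustment over 11552 genes. Standard errors were derived from the F statistic. Totals were 15276744 to 17060424 counts per sample, with 3 samples per group. Replicates differed by more than sampling noise, with a chi-square per gene between 2.12 and 4.97. Log2 CPM used a prior count of 2. The scripts were tested on simulated data.

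The 8 genes, the lists and the tests were chosen with earlier results of these data known, and the 4 motifs were chosen after the files had been seen. Named genes were the 8 genes, called genes of each list (at most 4, or the 2 of largest absolute log2 fold change where fewer than 2 were called), the 5 genes nearest to Cass4 in profile, and the 3 listed genes on each side of it. Marker genes came from fixed lists, and the kinases listed beside Fyn, Itgae and Itga10 were named outside this rule, after their values were seen. Alternatives were another scaling, filter, threshold or tool (DESeq2 1.42.0, limma 3.58.1 on log2 FPKM), a replicate block, and each sample left out. Coordinates and promoters are those of RefSeq, and protein sequences were not used here.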

Additional observations from a re-analysis of the deposited data

How the results depend on the processing

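Among the 7 tested genes of the set, the difference of Ptk2 alone changed sign over these alternatives. In the reported fit it was not past a threshold, and it ranged from −0.05 to 0.03. On log2(FPKM + 1), which understates changes of low genes, Cass4 had a log2 fold change of 2.56, 283 genes were called in place of 681, and 1 gene of the adhesion lists in place of 3. With no fold minimum, 5767 genes, 46 of the adhesion lists and 6 of the 8 genes passed, the last a count over genes chosen on this contrast. From normalized counts in place of FPKM, the share of Cass4 differed by 21.8 percentage points. Over the alternatives, Cass4 ranged from 2.56 to 3.57, Nedd9 from 0.54 to 0.75, Bcar1 from −0.22 to −0.11, Ptk2b from −0.72 to −0.53, Src from 0.39 to 0.55 and Crk from −0.26 to −0.15. With 1 sample left out, called genes of the adhesion lists ranged from 2 to 5, the 5 without SD70 replicate 1, where Itgae and Itga10 were added. All genes called then ranged from 621 to 721 and Cass4 from 3.32 to 3.57.

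A replicate block in the fit gave 692 called genes, 3 of them in the adhesion lists, with Cass4 at 3.47, a description since the set was chosen on this difference. Whether the numbers pair the samples was not established, and the labels give the numbers alone. The correlation of deviations between same-numbered samples 1, 2 and 3 was first computed over the 9623 genes with a mean of at least 100 counts, where Pearson's r was 0.176, 0.254 and 0.157. Other versions, run afterwards, gave −0.069, 0.048 and 0.114 over all 11552 genes, 0.200, −0.014 and −0.033 at a mean of at least 1000 counts, and Spearman's rho of 0.149, −0.024 and −0.004 at 100. Between differently numbered samples, Pearson's r ran from −0.186 to 0.011 at a mean of at least 100 counts. At a mean of at least 1000 counts it ran from −0.293 to 0.361. At this sequencing depth Efs had at most 1 count in a sample and Itgb3 at most 24.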
